A study of Mus musculus with 5 samples.

Results

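The receptor chains described here are the 9 mouse genes that encode receptors for interleukin-3 (IL-3), GM-CSF, IL-5, G-CSF, M-CSF and IL-6: Csf2rb, Csf2rb2, Csf2ra, Il3ra, Il5ra, Csf3r, Csf1r, Il6ra and Il6st. They were chosen by name from 24399 genes in the table, with the transcript row holding the most counts kept for each gene, and all 9 passed the filter on low counts that left 14565 tested genes. The mRNA came from LSK cells (lineage-negative, with Sca1 and cKit on the surface), the bone marrow fraction in which blood stem cells and early progenitors lie, sorted by flow cytometry from C57BL/6 mice aged 12 months. The mice belong to a germline knockout line. There were 3 libraries titled KO, whose genotype field is written as heterozygous (+/-), and 2 libraries titled WT with a wild type genotype. The comparison asks how expression in these cells differs between mice with and without the mutation.

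Title and genotype field differ for the mutant mice, so their libraries are called KO-labelled here. Library totals, with 1 transcript row per gene, ran from 29964556 to 39691066 counts, and the floor of 3 counts corresponded to 0.076 to 0.1 CPM. Whether each library is a different animal is not in the labels. The p-values then reflect only how these libraries vary, which may be technical. All 10 genes of a list of LSK markers were expressed and none passed the test. Their summed level was 4090 to 4400 CPM in KO-labelled and 4225 to 4355 CPM in WT libraries.

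Cytokine receptors of this kind are assembled from a chain that recognises 1 cytokine and a chain that several receptors share. The beta common chain, Csf2rb, pairs with Csf2ra to bind GM-CSF, with Il3ra to bind IL-3 and with Il5ra to bind IL-5, while Csf2rb2 is a mouse-specific beta chain used for IL-3 alone. The IL-6 receptor chain Il6ra likewise needs Il6st (gp130), which also serves receptors for leukaemia inhibitory factor, oncostatin M and IL-11. The G-CSF receptor Csf3r acts as a pair of identical chains. These receptors have no kinase of their own and signal through JAK kinases and STAT factors, whereas the M-CSF receptor Csf1r is itself a tyrosine kinase. In bone marrow their ligands drive the survival and growth of granulocyte, monocyte and eosinophil precursors.

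Csf2rb and Csf2rb2 are neighbouring near copies, and how much of their sequence is shared decides how far their counts are separate measurements. Their coding sequences, 2688 and 2634 bases in the GENCODE transcripts, matched at 95.4% of 2626 aligned positions and differed by substitution at 122. The stretch of 90 bases with the most differences held 16, shown in capitals (coding bases 308 to 397 of Csf2rb and 311 to 400 of Csf2rb2, counted from the start codon).
Csf2rb: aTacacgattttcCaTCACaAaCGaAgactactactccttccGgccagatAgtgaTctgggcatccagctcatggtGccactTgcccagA
Csf2rb2: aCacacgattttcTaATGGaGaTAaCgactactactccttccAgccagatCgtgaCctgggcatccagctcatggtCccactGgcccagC
Other stretches were identical, such as the 90 bases from coding base 662 of Csf2rb and 665 of Csf2rb2, and the longest identical run was 242 bases.
Both genes: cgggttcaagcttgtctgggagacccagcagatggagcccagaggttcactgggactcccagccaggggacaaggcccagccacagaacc
Over the whole transcripts, 18.9% of 50-base windows of Csf2rb also occurred in Csf2rb2, and 7.16% of 100-base windows did. Reads from most of either transcript can thus be told apart, but those from the identical stretches cannot. The sources used here give neither read length nor the handling of shared reads. The values of the pair are uncertain to that extent, and those of Csf2rb2 more so. Over all libraries Csf2rb held 12850 counts and Csf2rb2 held 2943. Any reads counted for both copies would thus form a larger share of the Csf2rb2 counts than of the Csf2rb counts. The microRNA genes annotated in exons of Csf2rb2 and Csf2rb, Mir7676-1 and Mir7676-2, had the same CPM as each other in every library (0.154 to 1.18). Whether reads were counted for both copies was not tested.

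The transcripts of 8 of the 9 chains had a log2 fold change below 0 in the KO-labelled libraries (49.9% of all tested genes did), and 4 fell past the threshold: Csf2rb, Csf2rb2, Il6st and Csf3r. None rose past it, against 0.79% of all tested genes. The threshold was an adjusted p under 0.05 in edgeR's quasi-likelihood test, which 1.18% of all tested genes passed in the lower direction and 1.97% in either. The median log2 fold change was -0.54 over the 9 chains and 0.001 over all tested genes. In 7 chains every KO-labelled library lay below both WT libraries, in Il5ra every one lay above, and in Il6ra the groups overlapped. Of all tested genes, 16.3% had all KO-labelled libraries below, 16.5% had them above and 32.8% had either. Before adjustment, 6 chains were lower and 1 higher at a p under 0.05, where 7.02% of all tested genes were lower and 13.8% were either. Values in CPM are counts over library size, corrected by the TMM composition factor. In bulk RNA, fewer cells of a type and less RNA per cell cannot be told apart.

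**Figure D1:**
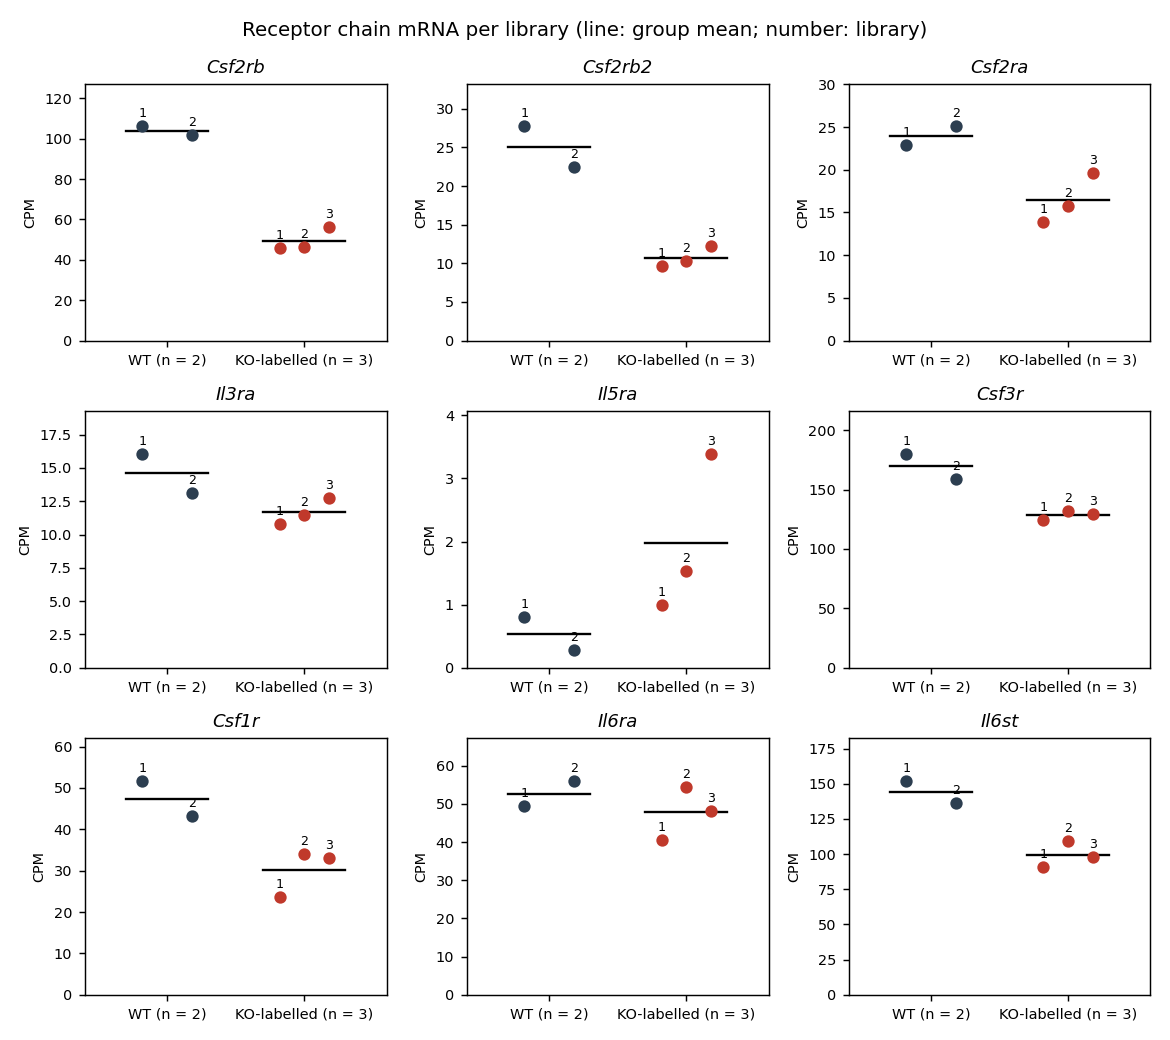
CPM (vertical axes, from 0) of the 9 receptor chains in each library, with 2 WT libraries in dark blue and 3 KO-labelled libraries in red, numbered as in the labels, and a line at each group mean. The Csf2rb points do not overlap, at 102 and 106 CPM in WT and 45.7 to 56.3 CPM in KO-labelled libraries, while those of Il6ra overlap.

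The shared beta chain had the lowest adjusted p of the 9. Csf2rb stood at 45.7, 46.2 and 56.3 CPM in KO-labelled libraries 1 to 3 and at 106 and 102 CPM in WT libraries 1 and 2. The highest KO-labelled library, library 3, was still well under the lower WT library. Csf2rb thus fell 2.10-fold, with a log2 fold change of -1.07 ± 0.11 (SE; adjusted p = 4.49e-04, edgeR).

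Csf2rb2, the beta chain used by IL-3 alone, stood at 9.69, 10.3 and 12.2 CPM in KO-labelled libraries 1 to 3 and at 27.7 and 22.5 CPM in WT libraries 1 and 2. Again the groups did not overlap, and KO library 3 was the highest of its group. The gene fell 2.34-fold (log2 fold change -1.23 ± 0.18, adjusted p = 0.00434, edgeR). The part of reads shared with Csf2rb in this fall was not tested. Its other, shorter transcript row carried 94.3% of the counts of the row used. With the counts of both copies summed into 1 gene, which removes reads assigned to the wrong copy but not reads that were discarded or counted for both, the log2 fold change was -1.10 (adjusted p = 3.29e-04, edgeR). Without WT library 1 the adjusted p was 0.0908 for Csf2rb and 0.226 for Csf2rb2, and without WT library 2 it was 0.0508 and 0.0799, so both calls needed both WT libraries.

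On chromosome 15, none of the nearest tested protein-coding genes on either side of the pair passed the threshold. On the Csf2rb2 side, Ncf4, a subunit of the phagocyte NADPH oxidase, changed by -0.04 ± 0.16 on the log2 scale without passing (adjusted p = 0.946, edgeR). On the Csf2rb side, Tst, a sulfurtransferase, had a log2 value of 0.06 ± 0.18 (adjusted p = 0.934, edgeR). Il2rb, another cytokine receptor chain nearby, stood at 7.14, 1.84 and 2.35 CPM in KO-labelled and 3.50 and 3.94 CPM in WT libraries, with overlapping groups. These flanking genes were chosen after the values of the pair were seen, and the differences between them and the pair were not tested.

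None of the 3 alpha chains that pair with Csf2rb passed the threshold. Csf2ra, the GM-CSF binding chain, stood at 13.8, 15.7 and 19.7 CPM in KO-labelled libraries 1 to 3 and at 22.8 and 25.1 CPM in the WT libraries. The groups did not overlap, but KO library 3 came close to WT library 1. Its log2 fold change was -0.55 ± 0.18 (adjusted p = 0.180, edgeR).

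Il3ra, the IL-3 binding chain, stood at 10.8, 11.5 and 12.7 CPM in KO-labelled and 16.1 and 13.1 CPM in WT libraries. KO library 3 and WT library 2 were nearly level. Its log2 fold change was -0.32 ± 0.20 (adjusted p = 0.518, edgeR). An annotated antisense gene overlaps an exon of Il3ra, and whether counting used strand is not stated, so its counts may include reads of that gene.

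Il5ra, the IL-5 binding chain found on eosinophils and some B cells, was the 1 chain with a higher mean in the KO-labelled libraries. It was barely expressed: 36, 60 and 134 counts in KO-labelled libraries 1 to 3 and 24 and 11 counts in WT libraries 1 and 2. In CPM these were 0.997, 1.54 and 3.39 against 0.800 and 0.281, with KO library 3 far above the others and KO library 1 close to WT library 1. The log2 fold change, 1.88 ± 0.78, missed the threshold (adjusted p = 0.304, edgeR), and it was 1.24 when KO library 3 was left out (adjusted p = 0.746). The eosinophil granule genes Prg2 and Epx were also highest in KO library 3, though the groups overlapped in Epx. Prg2, which encodes eosinophil major basic protein, stood at 9.97, 10.2 and 33.9 CPM in KO-labelled and 6.50 and 7.32 CPM in WT libraries. Epx, eosinophil peroxidase, stood at 3.49, 0.819 and 5.52 CPM against 2.17 and 0.921 CPM. Over the 9 markers of mast cells, basophils and eosinophils the summed level was 71.2 to 124 CPM in KO-labelled and 65.0 to 77.4 CPM in WT libraries, and 0 of the 8 tested passed. The groups did not overlap in 3 of these 8, against 32.8% of all tested genes, and their median log2 fold change was 0.50. The mast cell tryptase Tpsb2 was at 0 counts outside KO library 3. The part of such cells in the Il5ra values was not tested.

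Chain ratios within each library set the beta chain against its partners. Per kilobase of transcript, there were 1.28, 1.14 and 1.11 Csf2rb transcripts for each Csf2ra transcript in KO-labelled libraries 1 to 3, against 1.80 and 1.58 in the WT libraries. The log2 ratio was 0.23 ± 0.11 (SD, n = 3) against 0.75 ± 0.13 (SD, n = 2), a difference of -0.52. An exact permutation test, two-sided, gave p = 0.20, which is the smallest value that 3 against 2 libraries allow (0.30 after adjustment over the 3 ratios tested). The ratio of Csf2rb to Csf2rb2 was 4.70, 4.48 and 4.59 in KO-labelled and 3.81 and 4.51 in WT libraries, so the groups overlapped and no difference in the proportion of the near copies was resolved (exact permutation p = 0.40, adjusted 0.40). Such ratios need no scaling between libraries, but they carry the uncertainty of the shared reads.

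In the IL-6 receptor, Il6st passed the threshold and Il6ra did not. Csf2ra, a cytokine-binding chain that did not pass, had a log2 fold change close to that of Il6st (-0.55). Il6st stood at 90.8, 109 and 98.1 CPM in KO-labelled libraries 1 to 3 and at 152 and 136 CPM in WT libraries. Every KO-labelled library was lower than both WT libraries. It fell 1.45-fold (log2 fold change -0.54 ± 0.10, adjusted p = 0.0169, edgeR). Leaving out KO library 3 ended the call (adjusted p = 0.0989), as did leaving out WT library 1 (0.415) or WT library 2 (0.148) and blocking on the replicate number (0.0724).

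Il6ra stood at 40.6, 54.5 and 48.1 CPM in KO-labelled and 49.3 and 56.0 CPM in WT libraries. The groups overlapped, with KO library 2 above WT library 1, and the log2 fold change was -0.14 ± 0.14 (adjusted p = 0.712, edgeR). An annotated antisense gene overlaps an exon of Il6ra too. Per kilobase there were 0.861, 0.774 and 0.786 Il6st transcripts for each Il6ra transcript in KO-labelled libraries and 1.19 and 0.938 in WT libraries, a log2 difference of -0.39 (exact permutation p = 0.20, the smallest possible; adjusted 0.30). Of 5 tested receptors that partner Il6st, 0 passed. The most abundant were Il27ra, at 60.2 ± 6.79 (SD, n = 3) against 66.4 ± 2.61 CPM (SD, n = 2), and Il11ra1, at 34.2 ± 3.26 against 37.4 ± 0.539 CPM.

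Csf3r, which drives neutrophil production, was the most abundant of the 9 chains and fell by a smaller factor. It stood at 124, 132 and 130 CPM in KO-labelled libraries 1 to 3 and at 180 and 159 CPM in WT libraries 1 and 2. The KO-labelled libraries were close to each other and all lay below WT library 2. It fell 1.32-fold (log2 fold change -0.40 ± 0.09, adjusted p = 0.0417, edgeR). All 3 of its transcript rows held nearly the same reads, the lowest 92.3% of the highest. Summing them thus counts most of these reads more than once. This call lay close to the threshold. It ended when KO library 2 (adjusted p = 0.0671), KO library 3 (0.182), WT library 1 (0.539) or WT library 2 (0.161) was left out, when transcripts were summed (0.0584) and when the replicate number was a block (0.138).

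Csf1r, which supports monocytes and macrophages, stood at 23.7, 33.9 and 33.1 CPM in KO-labelled libraries 1 to 3 and at 51.7 and 43.1 CPM in WT libraries. The groups did not overlap, and KO library 1 was the lowest. Its log2 fold change was -0.65 ± 0.16, just short of the threshold (adjusted p = 0.0674, edgeR). It passed without KO library 1 (0.0265) or KO library 2 (0.0481), under DESeq2 (0.0153), under weighted limma (0.0159) and when low counts were not filtered (0.0119). An exon of Hmgxb3 overlaps Csf1r on the opposite strand, which adds to its uncertainty where counting was not stranded.

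**Figure D2:**
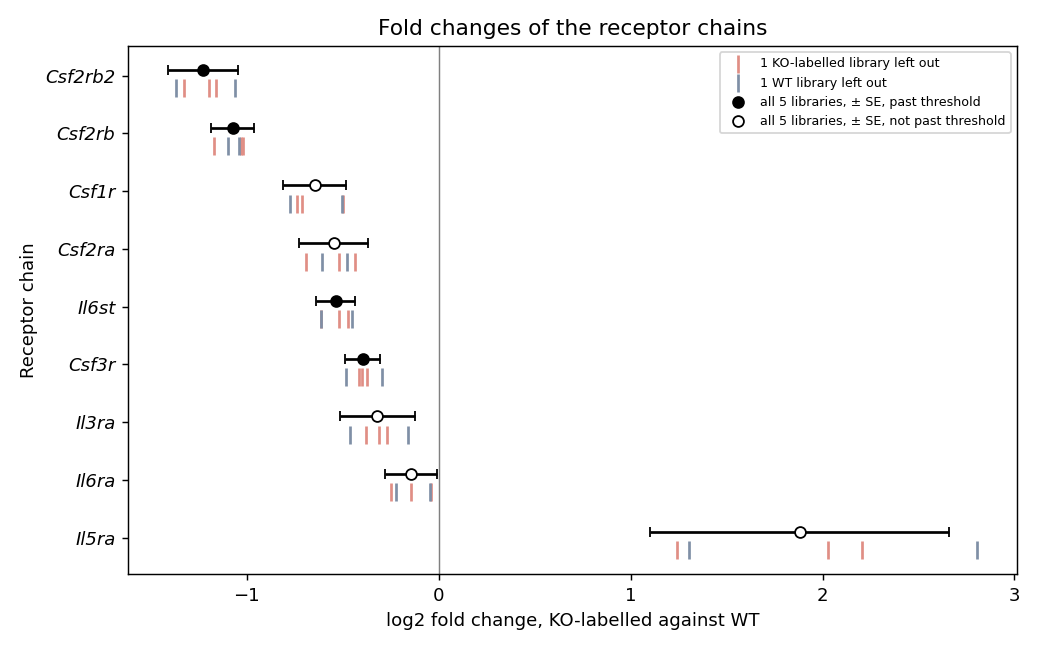
Log2 fold change of each receptor chain, KO-labelled against WT, with its standard error from all 5 libraries (circles, filled where the adjusted p is under 0.05) and the values with 1 library left out (short lines below). The 8 chains with a negative value stay below 0 with any library left out, and Il5ra ranges from 1.24 to 2.80.

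Some markers of more mature myeloid cells were also lower. The summed level of the 10 mature neutrophil markers that had a row was 199 to 200 CPM in KO-labelled and 296 to 360 CPM in WT libraries, and 2 fell, the calprotectin genes S100a8 and S100a9. The groups did not overlap in 9 of these 10 markers, whose median log2 fold change was -0.74. For 10 monocyte and macrophage markers the sums were 156 to 185 against 205 to 229 CPM, and 1 fell, F13a1. Here the groups did not overlap in 2 of 10, and the median was -0.15. Of all tested genes, 32.8% had groups that did not overlap, 1.18% were called lower and 0.79% higher. No marker of either list was at 0 in any library. Among 6 granule genes of myeloid progenitors, Prtn3 and Ctsg fell and the sums were 2942 to 3710 against 4293 to 4575 CPM. Their part in the falls of Csf2rb, Csf2rb2, Csf3r and Il6st was not tested. Of 6 erythroid markers, 4 were higher (Car1, Ermap, Klf1 and Slc4a1), with sums of 201 to 298 against 111 to 123 CPM. Slc4a1 lay at the threshold (adjusted p = 0.0499, edgeR) and kept its call in 5 of 13 alternatives, while Car1 lost it under weighted limma (0.0711) and with unfiltered counts (0.0712). Of 5 megakaryocyte markers, Gp1ba and Itga2b fell, with sums of 345 to 550 against 613 to 705 CPM. Klrb1c was the 1 of 8 T and NK cell markers that fell, and 0 of 6 tested B cell markers passed. Of 6 stromal and endothelial markers only Pdgfrb fell, with sums of 91.1 to 108 against 139 to 149 CPM. Without WT library 1 none of the marker calls named here held, and without WT library 2 only that of Ermap did. Leaving out KO library 3 also ended those of S100a8, S100a9, Klf1, Gp1ba and Pdgfrb, and leaving out KO library 2 those of Slc4a1 and Gp1ba.

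Compared per kilobase of transcript, the order of the chains differed between the groups. In WT libraries Csf3r was highest, at 48.7 ± 4.38 CPM per kb (SD, n = 2), followed by Csf2rb at 21.8 ± 0.608. Il6st (16.6 ± 1.28) and Il6ra (15.8 ± 1.42) came next and did not differ beyond their spread, nor did Csf2ra (12.96 ± 0.850) and Csf1r (12.3 ± 1.58). Il3ra (9.04 ± 1.305), Csf2rb2 (5.30 ± 0.780) and Il5ra (0.151 ± 0.103) were lowest. In KO-labelled libraries Csf3r was again highest, at 37.0 ± 1.09 CPM per kb (SD, n = 3), but Csf2rb, at 10.4 ± 1.26, stood behind Il6ra (14.3 ± 2.07) and Il6st (11.5 ± 1.08). Csf2rb overlapped there with Il6st above it and with Csf2ra (8.87 ± 1.61) below it. Csf1r (7.82 ± 1.47) and Il3ra (7.23 ± 0.593) overlapped as well, and Csf2rb2 (2.26 ± 0.278) and Il5ra (0.552 ± 0.352) remained lowest.

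**Figure D3:**
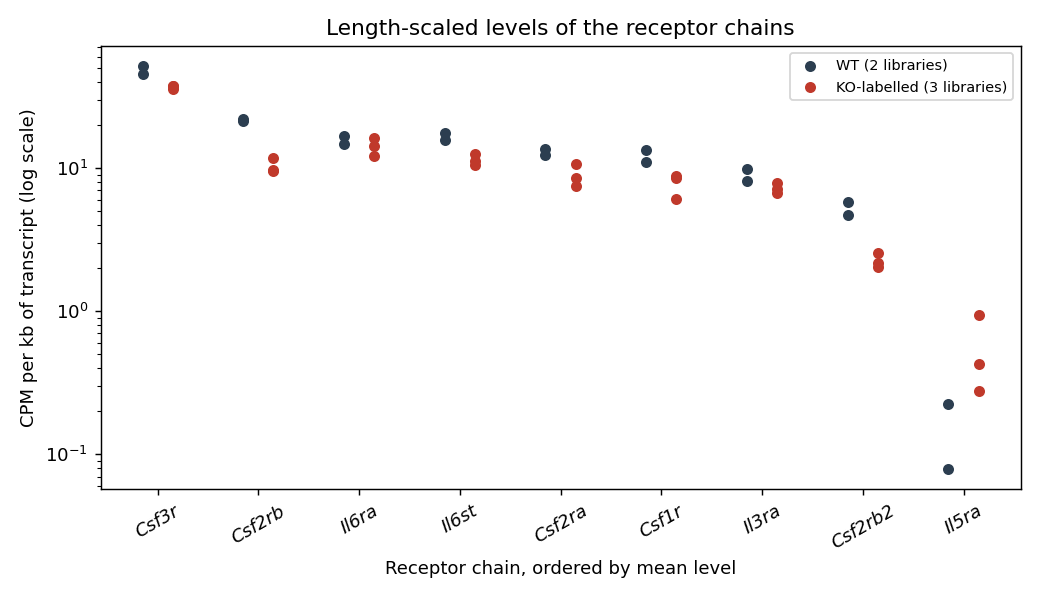
CPM per kilobase of transcript (log axis) of the 9 receptor chains in 2 WT libraries (dark blue) and 3 KO-labelled libraries (red), ordered by mean level. Csf3r is highest and Il5ra lowest in every library, and Csf2rb lies second in the WT libraries only.

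The genes whose pattern over the 5 libraries was most like that of a chain were found among 9780 other genes with a mean of at least 10 CPM, by the root mean square difference in centred log2 CPM. For Csf2rb they were Ffar2, a receptor for short-chain fatty acids (difference 0.04), Abcd2, a peroxisomal fatty acid transporter (0.10), and Rarb, a retinoic acid receptor (0.10). Ffar2 stood at 18.6, 19.1 and 21.6 CPM in KO-labelled and 41.7 and 41.6 CPM in WT libraries. For Csf2rb2 the nearest gene was Csf2rb itself (0.11), followed by Ffar2 (0.12) and Abcd2 (0.14). The part of shared reads in the likeness of the pair was not tested. For Csf3r they were Zfp971 (0.02), Rsbn1 (0.02) and Rsbn1l (0.03), and for Il6st 1700025G04Rik (0.03), the integrin chain Itgav (0.03) and the adhesion molecule Pecam1 (0.03). Zfp971, Rsbn1 and Itgav did not pass the threshold (adjusted p = 0.317, 0.0980 and 0.101, edgeR), while Rsbn1l, 1700025G04Rik and Pecam1 did.

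The promoters of the 3 chains that fell and have an entry in the RefSeq promoter table of GRCm38.p6 are shown because these chains moved in the same direction. Each runs from 250 bases before to 50 bases after the start in that table, with the first entry used per gene. The windows of Csf3r and Il3ra lie inside the annotated genes, which begin at bases 126023441 and 14345912. Capitals mark any match to 5 motifs searched on both strands. The ETS core bound by PU.1 was searched as GAGGAAG. The C/EBP motif was TTGCNNAA and the STAT motif was TTCNNNGAA. The letters TGTGGT stood for RUNX factors. For GATA factors the search used AGATAA.
Csf2rb2, chr15:78305672-78305971, minus strand: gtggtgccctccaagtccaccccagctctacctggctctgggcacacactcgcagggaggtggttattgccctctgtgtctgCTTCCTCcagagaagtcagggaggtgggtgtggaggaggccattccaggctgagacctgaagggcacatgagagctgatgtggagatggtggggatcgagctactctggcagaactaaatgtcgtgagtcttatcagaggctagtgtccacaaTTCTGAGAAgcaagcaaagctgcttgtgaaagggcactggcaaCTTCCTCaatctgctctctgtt
Csf3r, chr4:126024409-126024708, plus strand: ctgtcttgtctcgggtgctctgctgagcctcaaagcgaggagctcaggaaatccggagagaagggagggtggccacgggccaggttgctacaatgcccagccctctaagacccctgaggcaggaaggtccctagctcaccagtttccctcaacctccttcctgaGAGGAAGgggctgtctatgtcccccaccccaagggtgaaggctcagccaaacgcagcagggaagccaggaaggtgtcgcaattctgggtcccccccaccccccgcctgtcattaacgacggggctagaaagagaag
Il6st, chr13:112463820-112464119, plus strand: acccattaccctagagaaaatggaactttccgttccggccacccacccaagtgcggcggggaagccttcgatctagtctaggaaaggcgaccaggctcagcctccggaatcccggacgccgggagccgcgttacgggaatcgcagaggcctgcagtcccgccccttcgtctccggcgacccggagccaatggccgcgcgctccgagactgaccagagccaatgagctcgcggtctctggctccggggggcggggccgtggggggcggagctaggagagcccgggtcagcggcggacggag
The ETS letters occurred at 2 places in the Csf2rb2 window and 1 in the Csf3r window, and at 2 places, sharing bases, in that of Csf2ra, against 13.5% of 27025 promoters with at least 1. The Csf2rb2 window also held 1 STAT match (8.47% of all promoters), and that of Il3ra 1 C/EBP match (10.8%). Those of Il5ra and Il6ra held 1 GATA match each (11.4%), and no RUNX match (16.9%) was found in the 7 windows searched. Windows of Csf2rb and Csf1r were not searched. Csf2rb had no entry in the promoter table, whereas Csf1r was left out by name before the search. The letters of none of the 5 motifs were in the Il6st window. A match is a run of letters and does not show binding. Spi1, which encodes PU.1, stood at 71.8 ± 8.19 CPM (SD, n = 3) against 90.2 ± 0.875 CPM (SD, n = 2), or -0.33 ± 0.11 on the log2 scale, short of the threshold (adjusted p = 0.189, edgeR).

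Most genes of the lists around the receptors did not pass. Of 95 tested genes in 10 lists of the pathway, 2 rose and 6 fell, against 0.79% and 1.18% of all tested genes. These lists include the myeloid transcription factors and the granule genes, so Prtn3 and Ctsg are among the 6. Of the 10 ligands, Il3, Csf2, Il5 and Csf3 had 0 counts in every library, and 0 of the 4 tested passed. Csf1, the M-CSF gene, stood at 19.1 ± 2.81 against 16.8 ± 4.02 CPM and Osm, the oncostatin M gene, at 10.3 ± 1.24 against 10.2 ± 2.33 CPM.

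Among JAK kinases and STAT factors, Jak1, the kinase bound by gp130, stood at 596 ± 14.5 CPM (SD, n = 3) against 596 ± 11.02 CPM (SD, n = 2). Jak2, the kinase bound by the beta chains, stood at 170 ± 5.67 against 171 ± 12.7 CPM. Stat5a (log2 fold change -0.04 ± 0.09), Stat5b (-0.15 ± 0.09) and Stat3 (-0.13 ± 0.09), the factors these receptors activate, did not pass. None of the 10 genes of this list passed. However, 1 of them was called lower under upper quartile scaling, DESeq2, weighted limma, unfiltered counts, the replicate block and the length offset. Leaving out KO library 1 or KO library 2 also gave 1 lower call. None of 16 adaptors and signalling enzymes passed, among them the abundant Plcg2 (-0.13 ± 0.08) and Syk (0.07 ± 0.09).

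Of 12 negative regulators, Socs3, an inhibitor that binds gp130 and the G-CSF receptor, fell 4.13-fold and no other passed. It stood at 9.16, 7.47 and 7.17 CPM in KO-labelled libraries and at 27.9 and 37.5 CPM in WT libraries, with a wide gap between the groups (log2 fold change -2.05 ± 0.19, adjusted p = 1.92e-04, edgeR). Among 10 STAT3 and STAT5 targets, 1 fell and 1 rose. The survival kinase Pim2 fell 2.02-fold, from 62.3 ± 4.97 (SD, n = 2) to 30.9 ± 3.42 CPM (SD, n = 3; adjusted p = 0.00190, edgeR). The cell cycle gene Ccnd2, a D-type cyclin, rose 1.52-fold, from 384 ± 24.5 to 583 ± 29.5 CPM (adjusted p = 0.00305, edgeR).

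Of 17 tested other class I cytokine receptors, the IL-21 receptor Il21r rose (71.2 ± 3.72 against 47.3 ± 1.92 CPM, log2 fold change 0.59 ± 0.11, adjusted p = 0.0120, edgeR) and the growth hormone receptor Ghr fell 1.77-fold. Of 3 tested kinases related to Csf1r, Pdgfrb fell 1.72-fold, while Kit had a log2 fold change of -0.12 ± 0.07. The calls of Ghr and Pdgfrb ended under the replicate block (adjusted p = 0.144 and 0.0626) and without KO library 3 (0.150 and 0.118). That of Ghr also ended without KO library 2 (0.0946), and that of Pdgfrb with unfiltered counts (0.0698) and summed transcripts (0.0759). The call of Il21r ended without KO library 3 (0.0535). None of 12 myeloid transcription factors passed, among them the abundant Myb (0.16 ± 0.08) and Gata2 (0.08 ± 0.09). Both genes that rose and 5 of the 6 that fell lost their calls when either WT library was left out, and Socs3 kept its call with any library left out.

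**Figure D4:**
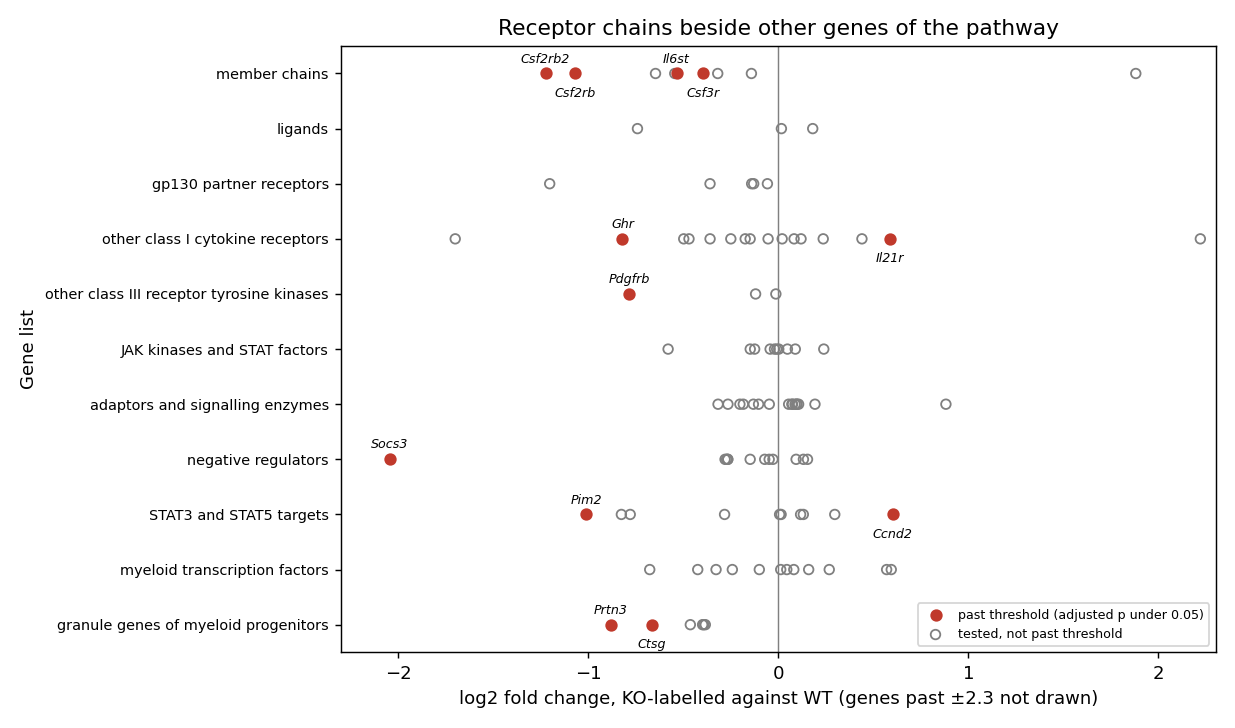
Log2 fold changes, KO-labelled against WT, of tested genes of the receptor chains and of 10 pathway lists, with genes past the threshold filled and named. Il11 (2.92) and Il2ra (7.04), both near the floor in WT libraries and not past the threshold, lie outside the axis; the receptor chains lie mostly left of 0, and the JAK, STAT and adaptor lists lie on both sides of it.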

How the data were processed

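The authors deposited a table of unnormalised counts (33862 RefSeq transcripts, 5 libraries of LSK mRNA), prepared with a stranded kit per the labels' protocols. The build mm9 (NCBIM37) and the tools featureCounts, Subread 1.4.5-p1 and STAR are named per the submitters' processing notes. Not given in the sources used here are read length, strand use and how shared reads were treated. Symbols came from the RefSeq table of GRCm38 (33485 rows) and GENCODE (188), and 189 rows, with 0.362% to 0.459% of counts, kept their accession. The row with most counts was used per gene, with transcript lengths from GENCODE for 97.4% of genes.

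After filterByExpr and TMM scaling, edgeR 4.0.16 in R 4.3.3 tested the counts (robust quasi-likelihood test, two-sided, Benjamini-Hochberg over all tested genes), with groups from the titles. The standard error is the log2 fold change divided by the root of the F statistic. The test was checked on simulated counts. Alternatives used DESeq2 1.42.0, limma 3.58.1, other scalings, filters and transcripts, a length offset, a block for replicate number, and leaving out libraries in turn. Summed transcripts can count a read again for each row of a gene that holds it. Exact tests used scipy 1.17.1 in Python 3.11.15.

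The receptor chains, gene lists, motifs and tests were chosen with earlier results of these data known. Named were all 9 chains, each pathway list's genes past the threshold or otherwise its 2 most abundant, and the 3 genes most like each chain past the threshold. Flanking genes and other genes named for comparison were chosen after their values were seen. No list was tested as a set. The targeted gene and 1 gene of the pathway lists are not reported here, and the list counts leave them out.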

Additional observations from a re-analysis of the deposited data

How the results depend on the processing

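No alternative turned the direction of the 9 receptor chains or of the 18 list genes past the threshold, and the directions of other named genes were not compared across the alternatives. Il5ra kept a positive and the other 8 chains a negative log2 fold change in all 13 alternatives, and Csf2rb and Csf2rb2 passed in 11 of 13, failing without either WT library. The chains called lower numbered 4, 2 under the replicate block, and 0 to 5 when 1 library was dropped (2 without KO library 3, 0 without either WT library); 0 were called higher in any. All genes called, higher and lower (287, 115 and 172) became 524, 240 and 284 under DESeq2. Weighted limma gave 624, 247 and 377, unfiltered counts gave 455, 200 and 255, and the replicate block gave 160, 54 and 106. Dropping 1 library gave 6 to 675, 2 to 312 and 4 to 363 (leave-one-out), the lowest without WT library 1 and the highest without KO library 1. Pathway genes called higher (2) ranged from 0 to 3 and lower (6) from 1 to 10 with 1 library left out, and 11 were lower with DESeq2. Marker genes called higher (4) ranged from 0 to 5 and lower (7) from 0 to 9, and 2 were higher with limma. The differences of the chain ratios ranged from -0.62 to -0.42 for Csf2rb over Csf2ra, from 0.02 to 0.27 for Csf2rb over Csf2rb2 and from -0.56 to -0.22 for Il6st over Il6ra. When a WT library is dropped, the spread of the lone WT sample is taken from the KO-labelled group, which is an assumption. The cause of the other changes was not tested. Replicate numbers did not pair the libraries by their deviations from the group means: the correlation over 14565 genes was 0.04 for KO and WT library 1 and 0.02 for KO and WT library 2, and the block leaves KO library 3 without a partner. Depth limits Il5ra most, with 11 to 134 counts per library.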
